A study of Mus musculus with 16 samples.

Results

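The IGF axis comprised 10 genes, selected by symbol from the 47729 genes listed in each count table: the ligand gene Igf1, its receptor gene Igf1r, Igfals, which encodes the acid-labile subunit, and the binding protein genes Igfbp1 to Igfbp7. The selection rule uses symbols only, but the axis was taken up with earlier results of these data known. RNA was sequenced from ECs (endothelial cells), HSCs (hepatic stellate cells), KCs (Kupffer cells, the resident macrophages) and HEPs (hepatocytes) of unchallenged adult mouse livers, in 16 libraries with 2 for each cell type and genotype label. Livers labelled KO came from mice with a loxP-flanked Zeb2 exon 7 and a tamoxifen-inducible Cre under the endothelial Cdh5 promoter, on the background of an eGFP reporter (R26R, CAG-boosted). Those labelled WT came from littermates without Cre, and all mice received 2 mg tamoxifen per day on 5 days. The study's methods give males of 8 weeks and an mRNA analysis 2 weeks after tamoxifen. HEPs were separated by centrifugation, and the other 3 cell types were sorted by antibodies or by the autofluorescence of HSCs. The labels do not say which libraries shared a liver.

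Igf1 is a circulating growth factor that the liver secretes under the control of growth hormone, whose receptor acts through Stat5 proteins. Most circulating Igf1 is bound in a complex of Igfbp3 or Igfbp5 with the acid-labile subunit, which prolongs its half-life, and the other binding proteins form smaller complexes. Igf1r is a receptor tyrosine kinase on target cells. Parenchymal and nonparenchymal liver cells are known to divide the production of these proteins among them.

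Reads counted on genes ranged from 12872706 to 15690506 per library, and 3 counts, taken as the floor, corresponded to 0.191 to 0.233 CPM (counts scaled to 1e6 reads on genes in each library). Intervals and floors of this kind cover counting error only. The 10 markers of each cell type were detected in all its libraries. Markers of HEPs were also present in the nonparenchymal libraries, at a median of 11.4% and 21.7% of their mean level in WT HEPs in the ECs labelled WT and of 2.65% and 1.87% in those labelled KO. In HSCs this median was 3.05% and 6.68% under the WT label and 0.467% and 1.02% under the KO label, and in KCs it lay between 5.17% and 10.9%. Zeb2 did not check the KO label: ECs labelled WT had 106 and 106 CPM and those labelled KO had 199 and 130 CPM, and a count over the whole gene also includes exons that are not deleted. Groups are therefore called by their labels, and a direction below is that of the label and not of a loss of Zeb2 seen in these libraries. The study itself reports an efficient deletion of Zeb2 in ECs, measured on mRNA and by the gain of eGFP.

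Promoters of the 10 genes were taken from RefSeq (GRCm38.p6, 250 bases before to 50 bases after a start), in which they have 13 windows. Those of Igfals and Igfbp1 are printed because the level of both genes was highest in HEPs, and because they hold motifs of the factors known to act on hepatocyte genes. Capitals mark, in Igfals at chr17:24877981-24878280 on the plus strand, the STAT-type motif TTCNNNGAA, which begins 58 bases upstream of the start. In Igfbp1 at chr11:7197537-7197836 on the plus strand they mark CAAAACA, an insulin-response type motif 108 bases upstream, and ATTAAC, the reverse complement of the HNF1 half-site GTTAAT, 56 bases upstream.
Igfals promoter: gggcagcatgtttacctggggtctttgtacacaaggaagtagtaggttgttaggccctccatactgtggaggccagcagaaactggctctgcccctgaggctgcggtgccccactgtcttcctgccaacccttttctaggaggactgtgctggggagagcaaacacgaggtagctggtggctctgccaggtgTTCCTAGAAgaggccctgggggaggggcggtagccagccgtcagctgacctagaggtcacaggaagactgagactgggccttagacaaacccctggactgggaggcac
Igfbp1 promoter: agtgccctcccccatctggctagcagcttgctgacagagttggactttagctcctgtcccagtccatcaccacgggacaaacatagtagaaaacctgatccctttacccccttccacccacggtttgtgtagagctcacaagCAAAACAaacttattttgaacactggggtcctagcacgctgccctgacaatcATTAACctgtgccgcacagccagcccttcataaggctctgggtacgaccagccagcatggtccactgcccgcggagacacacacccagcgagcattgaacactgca
On either strand, TTCNNNGAA was found in 8.30% of the 32851 promoter windows of the table, CAAAACA in 6.28% and GTTAAT in 7.10%, and the matches printed here do not overlap. Among the 13 windows, the STAT-type motif was in 2, both of Igfals, and CAAAACA and GTTAAT were each in 1, that of Igfbp1. A match of letters does not show that a factor binds there.

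Igf1, the ligand gene (Ensembl ENSMUSG00000020053, chr10:87858265-87937042, GRCm38, plus strand), was read in all 4 cell types and was highest in HEPs. HEPs labelled WT had 826 and 832 CPM and those labelled KO had 767 and 1016 CPM. KCs had 485 and 486 CPM under the WT label and 465 and 522 CPM under the KO label, so that the 4 KC libraries lay within a narrow band below every HEP library and above every EC and HSC library. ECs labelled WT had 89.7 and 236 CPM and HSCs labelled WT had 71.1 and 91.5 CPM. The mean over the 4 libraries was 860 ± 108 CPM in HEPs, 490 ± 23.8 in KCs, 97.7 ± 96.0 in ECs and 52.9 ± 34.2 in HSCs (SD, n = 4), and ECs and HSCs overlapped.

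Levels between cell types were tested in edgeR's quasi-likelihood fit over the 16 libraries, in which a gene had one top cell type if its level exceeded that in each of the other 3 at an adjusted p-value (Benjamini-Hochberg) below 0.05. Of the 10 genes, 7 met this criterion, beside 36.6% of the 17214 genes tested. For single cell types the share of all genes was 17.9% for HEPs, 6.66% for HSCs, 7.23% for KCs and 4.81% for ECs. Igf1, Igfals, Igfbp1, Igfbp2 and Igfbp4 were highest in HEPs, and Igfbp3 and Igfbp7 in HSCs. The scaling matters here. HEP libraries put 24.5% to 26.7% of their reads into 20 genes, beside 19.4% to 23.2% in HSCs, 17.1% to 20.4% in KCs and 12.7% to 15.2% in ECs. The TMM factors of HEP libraries were 0.497 to 0.588, against 1.01 to 1.47 in the other libraries. TMM thereby raised HEPs by 1.37 (log2) relative to ECs, 1.13 relative to HSCs and 1.06 relative to KCs, for every gene alike. Igf1 in HEPs exceeded that in KCs 3.66-fold in this fit (log2 difference 1.87, adjusted p = 0.000182 by edgeR) and 1.76-fold on the CPM scale, and HEPs were highest on both scales.

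**Figure D1:**
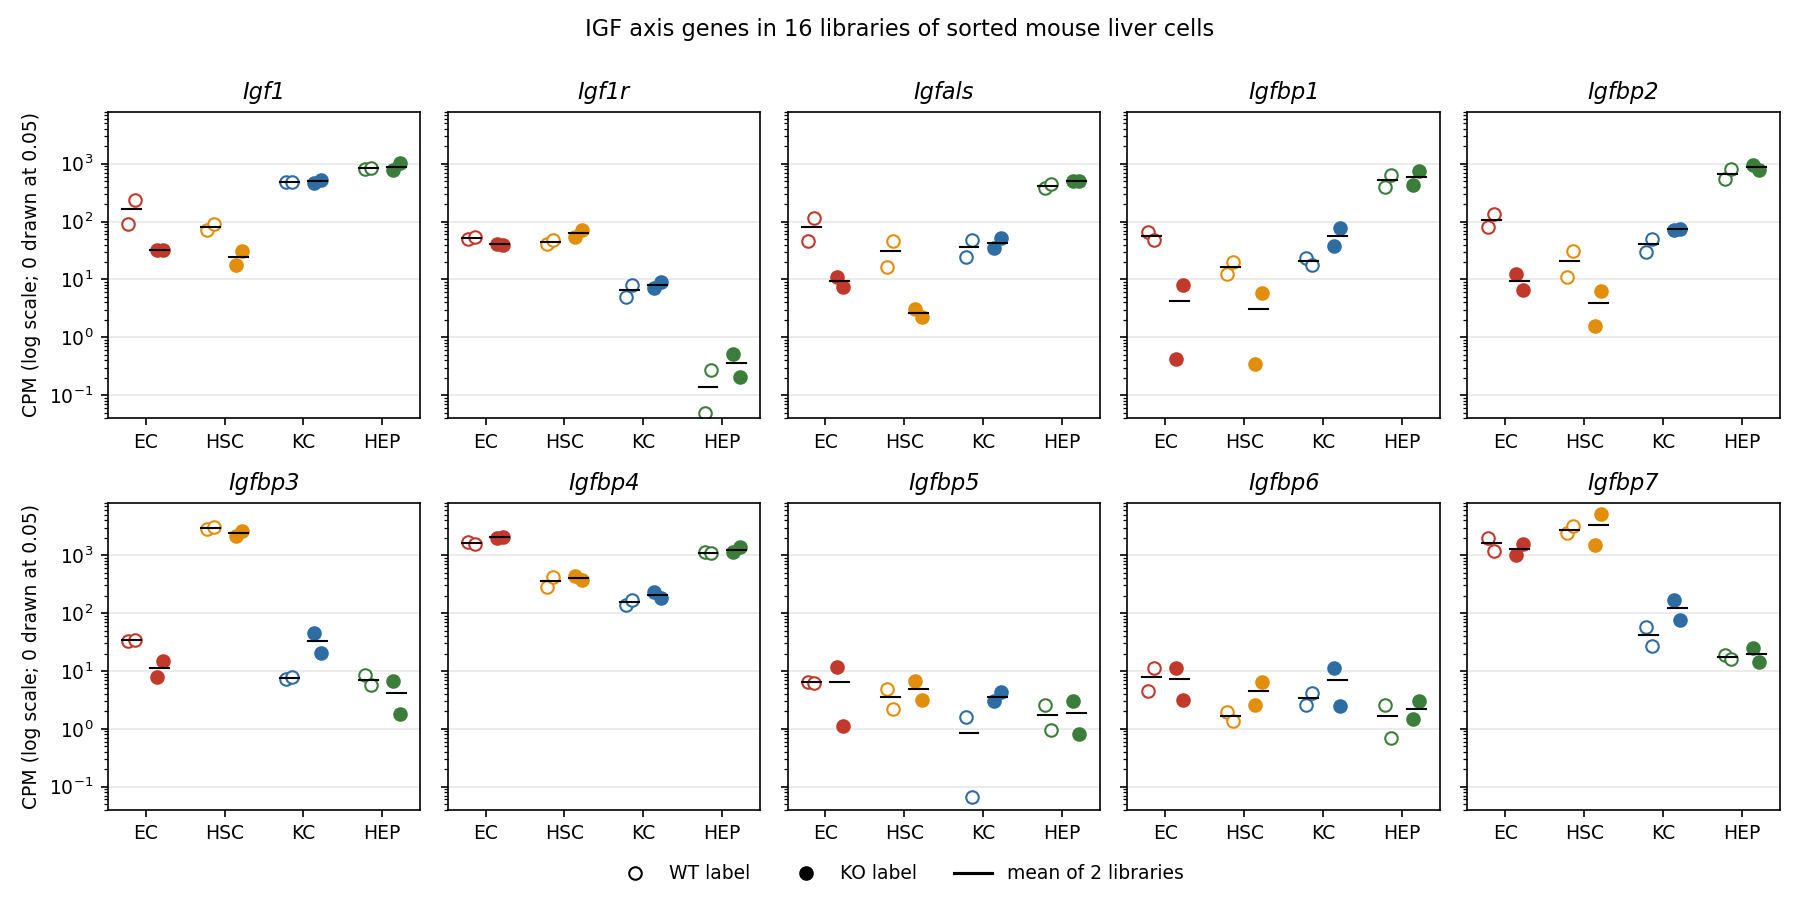
CPM of the 10 IGF axis genes in each of the 16 libraries, on a log axis, by cell type (open circles, WT label; filled circles, KO label; bars, mean of the 2 libraries). Igf1, Igfals, Igfbp1 and Igfbp2 were highest in HEPs and Igfbp3 in HSCs, while Igfbp4 was highest in ECs on this CPM scale but in HEPs after TMM scaling.

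Igf1r, the receptor gene (ENSMUSG00000005533, chr7:67952827-68233668, plus strand), showed the opposite distribution. ECs had 49.5 and 55.1 CPM under the WT label and 41.6 and 38.9 CPM under the KO label, and HSCs had 40.8 and 48.1 CPM against 54.1 and 71.6 CPM. These 2 cell types overlapped, and their difference of 0.46 (log2) was within the replicate spread (adjusted p = 0.341, edgeR). KCs had 5.03 to 9.20 CPM, all below every EC and HSC library. In HEPs the gene was near the floor, with counts of 0 and 4 under the WT label and 8 and 3 under the KO label, a mean of 0.248 ± 0.213 CPM (SD, n = 4), where a count of 0 allows up to 0.191 CPM. The cells with the highest Igf1 level thus had the lowest Igf1r level among the 4 cell types, and the reads on Igf1r were found mainly in ECs and HSCs.

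Igfals (ENSMUSG00000046070, chr17:24865997-24882010, plus strand), the gene of the acid-labile subunit that stabilizes circulating complexes, was at 382 and 443 CPM in HEPs labelled WT and at 513 and 496 CPM in those labelled KO. All other libraries were lower, with 45.4 and 114 CPM in ECs labelled WT, 16.2 and 45.3 CPM in HSCs labelled WT and 24.5 to 51.1 CPM in KCs. Its smallest distance between HEPs and another cell type was 24.5-fold after TMM scaling (adjusted p = 1.325e-06, edgeR), that to KCs. In mean CPM the nearest cell type was ECs, at a 10.3-fold distance. Igfbp1 (chr11:7197782-7202546, plus strand) encodes a binding protein known to be repressed by insulin. It had 398 and 631 CPM in WT and 431 and 754 CPM in KO HEPs, and 0.346 to 76.2 CPM elsewhere. Igfbp2 (chr1:72824503-72852474, plus strand) had 537 and 796 CPM in WT and 957 and 769 CPM in KO HEPs, and 1.59 to 135 CPM elsewhere. For both genes every HEP library exceeded every other library, the smallest fitted fold being 33.6 and 29.2 (adjusted p = 0.000322 and 4.132e-06). The smallest ratio of mean CPM was 14.3 for Igfbp1 (to KCs) and 13.1 for Igfbp2 (to ECs).

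Because HEP markers were present in the nonparenchymal libraries, the levels of these genes were set beside them, each as a percentage of its mean in WT HEPs. Igfals was within the range of the 10 HEP markers in 11 of 12 nonparenchymal libraries, Igfbp2 in 10 and Igfbp1 in 9. The ratio of Igfals to the marker median lay between 0.540 and 1.64, and that of Igfbp2 between 0.511 and 1.18. Igfbp1 went down to 0.0306 times the marker median in 1 EC library labelled KO, which had 0.418 CPM. Igf1 was within the marker range in only 3 of 12 libraries, namely both EC libraries labelled WT and the HSC library WT 40. In KCs it was at 56.1% to 63.0% of the WT HEP level, 5.77 to 11.3 times the marker median, and in HSCs at 1.65 to 4.66 times the median. In ECs labelled WT it was at 0.948 and 1.31 times the marker median. In ECs labelled KO it was at 1.49 and 2.09 times the median, above the marker range. Igfbp4 was above the marker range in all 12 libraries, at 1.53 to 102 times the median. These are CPM percentages on one scale, and RNA from HEPs and transcription in the sorted cells cannot be told apart within a library. In bulk libraries, fewer cells of a type and less RNA per cell cannot be told apart either.

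**Figure D2:**
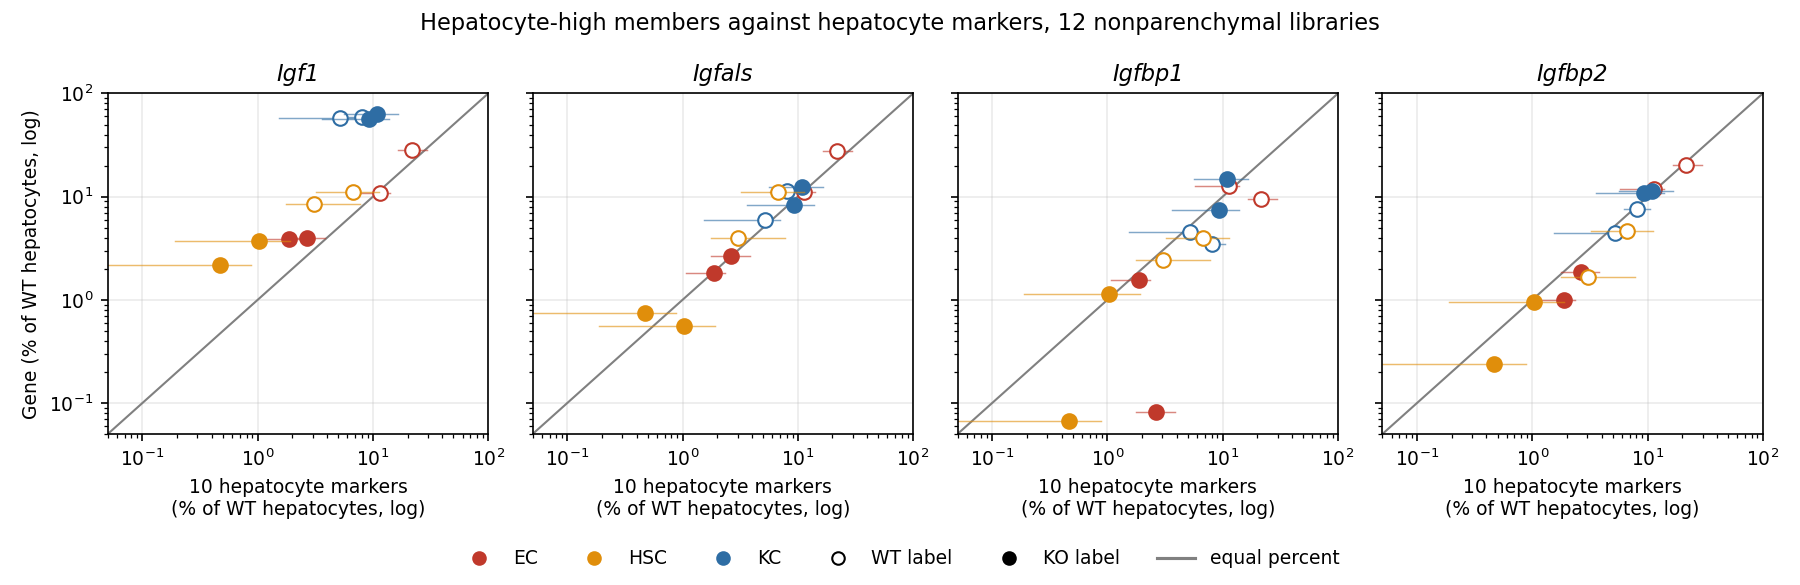
Level of 4 genes (vertical) against the median of 10 HEP markers (horizontal), both in percent of the mean of WT HEPs on log axes, in the 12 nonparenchymal libraries. Horizontal lines span the lowest to the highest marker (cut at 0.05% on the left), open circles are WT and filled circles KO labels, and the grey line marks equal percentages. Igf1 of the 4 KC libraries stands at 56.1% to 63.0%, above the line, whereas Igfals and Igfbp2 lie near it.

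Igfbp3 (ENSMUSG00000020427, chr11:7206086-7213923, minus strand) encodes the main carrier of circulating Igf1, and it was read almost entirely in HSCs. These had 2830 and 3113 CPM under the WT label and 2135 and 2668 CPM under the KO label. The highest value outside HSCs was 44.8 CPM in a KC library labelled KO. HSCs exceeded ECs, the next cell type, 161-fold after TMM scaling (log2 difference 7.33, adjusted p = 4.321e-07, edgeR) and 119-fold in mean CPM, and the other 3 cell types overlapped one another. In HEPs, where the Igfals reads lay, Igfbp3 had 8.41 and 5.73 CPM under the WT label and 6.58 and 1.82 CPM under the KO label. The genes of the 3 subunits of the circulating complex thus had their highest levels in different cell types, with Igf1 and Igfals in HEPs and Igfbp3 in HSCs.

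Igfbp7 (chr5:77349240-77408041, minus strand), a binding protein of low affinity for Igf1 that is deposited around vessels, was high in both HSCs and ECs. HSCs had 2379 and 3168 CPM under the WT label and 1486 and 5181 CPM under the KO label, and ECs had 2025 and 1180 CPM against 1019 and 1546 CPM. KCs were between 27.4 and 168 CPM and HEPs between 14.6 and 25.2 CPM. HSCs and ECs overlapped in CPM, and the fitted difference of 1.33 (log2) was just past the threshold (adjusted p = 0.0438, edgeR), but not without TMM factors (adjusted p = 0.0706), nor in the WT or the KO libraries alone (adjusted p = 0.213 and 0.163). The call was also lost when any of 8 libraries was left out (ECs WT 38, KO 6 and KO 46, HSCs WT 32, WT 40 and KO 20, HEPs WT 29 and WT 33). Igfbp7 shares 85 exon bases with Polr2b on the opposite strand, which reached at most 87.0 CPM, and the strand setting of the count is not given in the sources used here.

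Igfbp4 (chr11:99041244-99054392, plus strand), whose product mostly inhibits Igf1 and is cleaved by Pappa, was the most evenly distributed of the abundant members. ECs had 1691 and 1568 CPM under the WT label and 2005 and 2099 CPM under the KO label, and HEPs had 1116 and 1079 CPM against 1122 and 1379 CPM. HSCs followed with 283 to 443 CPM and KCs with 137 to 233 CPM, and no 2 cell types overlapped. The top cell type depended on the scaling. On the CPM scale ECs exceeded HEPs (log2 difference 0.64, adjusted p = 0.00708 in the edgeR fit without composition factors), and after TMM scaling HEPs exceeded ECs (log2 difference 0.73, adjusted p = 0.00585). The order of ECs, HSCs and KCs was the same on both scales. The call for HEPs was lost without any of 6 libraries (ECs WT 38, KO 6 and KO 46, HEPs WT 29, WT 33 and KO 41), without a filter on low counts (adjusted p = 0.111) and in the WT or the KO libraries alone (adjusted p = 0.0804 and 0.157).

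Igfbp5 (chr1:72857932-72874884, minus strand) and Igfbp6 (chr15:102144362-102149511, plus strand) were low in every library. Igfbp5, which can also form the circulating complex, had 0.0652 to 11.8 CPM, and Igfbp6, which prefers Igf2 over Igf1, had 0.682 to 11.4 CPM. Neighbouring cell types overlapped for both genes, and neither had one top cell type (largest adjusted p = 0.810 and 0.762 by edgeR between the highest cell type and another).

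Levels of different genes were compared per kilobase of the union of annotated exons (GENCODE release M21). Summed over the 7 binding proteins, HSCs had 3487 ± 1364 CPM per kb, ECs 1677 ± 373, HEPs 1062 ± 173 and KCs 177 ± 82.5 (SD, n = 4). Igfbp7 made up 69.9% ± 8.81 of the sum in HSCs and 70.2% ± 6.01 in ECs, and the second gene was Igfbp3 in HSCs (26.8% ± 7.64) and Igfbp4 in ECs (25.8% ± 6.90). HEPs had no such leading gene, with 39.0% ± 6.44 for Igfbp2, 33.8% ± 6.15 for Igfbp1 and 25.4% ± 3.72 for Igfbp4. This order depends on the length used. In mean CPM, without division by length, Igfbp4 came first in HEPs (1174), before Igfbp2 (765) and Igfbp1 (554). In KCs, Igfbp7 took 35.7% ± 12.3, Igfbp4 25.6% ± 8.02 and Igfbp2 18.4% ± 5.62 of a sum that was the smallest of the 4. Igfbp7 in KCs was at 1.71% to 10.5% of its WT EC level, where EC markers had medians of 2.42% to 5.63%. Relative to the HEP marker median, Igfbp2 in KCs was at 0.862 to 1.18 times and Igfbp4 at 1.53 to 2.41 times. The part of other cells' RNA in the KC sum was not tested.

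**Figure D3:**
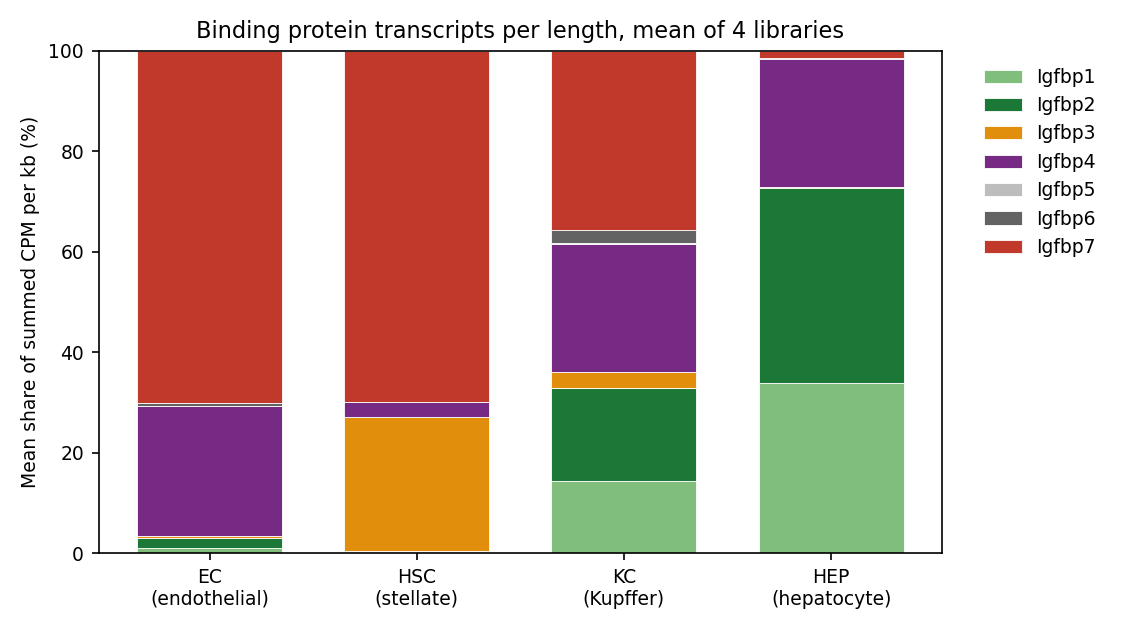
Mean share (percent) of each binding protein gene in the summed CPM per kb of Igfbp1 to Igfbp7, as stacked bars for the 4 cell types (4 libraries each). Igfbp7 and Igfbp3 fill most of the HSC bar, Igfbp7 and Igfbp4 the EC bar, and Igfbp2, Igfbp1 and Igfbp4 the HEP bar.

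Next, the libraries labelled KO were compared with those labelled WT within each cell type. In ECs, 9 of the 10 genes had a lower estimate under the KO label, with a median log2 fold change of -0.96 against -0.01 over all 14631 genes tested. Igfals and Igfbp2 fell past the threshold, while 305 genes (2.08%) were called in all, 288 of them lower. Igfbp2 had 79.6 and 135 CPM under the WT label and 12.3 and 6.67 CPM under the KO label, an 11.4-fold difference (log2 -3.51 ± 0.39 (SE), adjusted p = 0.0245, edgeR). Igfals had 45.4 and 114 CPM against 11.1 and 7.44 CPM, an 8.63-fold difference (log2 -3.11 ± 0.48, adjusted p = 0.0361, edgeR). In 6 genes (Igf1, Igf1r, Igfals, Igfbp1, Igfbp2 and Igfbp3) both KO libraries were below both WT libraries, beside 24.1% of all genes, and only Igfbp4 was above in both, beside 24.2%.

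Igf1 in ECs had 89.7 and 236 CPM under the WT label and 32.7 and 32.5 CPM under the KO label, with a log2 fold change of -2.31 ± 0.44 (SE) that missed the threshold in edgeR (adjusted p = 0.0597). It passed in DESeq2 (adjusted p = 2.622e-06) and in the edgeR fit over all 16 libraries (adjusted p = 0.0153). Igfbp3, with 32.8 and 34.5 CPM against 8.01 and 14.8 CPM, was at log2 -1.54 ± 0.39 (adjusted p = 0.135 in edgeR and 0.0125 in DESeq2). Igfbp1, with 65.1 and 48.8 CPM against 0.418 and 8.06 CPM, was at -3.70 ± 1.05 (adjusted p = 0.171 in edgeR). DESeq2 called 4 of the 10 genes (Igf1, Igfals, Igfbp2 and Igfbp3), beside 6.70% of all genes. Igf1r, Igfbp4 and Igfbp7 differed by -0.38, 0.33 and -0.31 (log2; adjusted p = 0.489, 0.612 and 0.769 in edgeR). HEP markers moved in the same direction as the called genes, with a summed level of 11872 and 24504 CPM in the ECs labelled WT and 2824 and 1984 CPM in those labelled KO, none of the 10 at 0. HSC markers stood at a median of 1.69% and 1.88% of the WT HSC level in ECs labelled WT and 0.606% and 0.785% in those labelled KO, and Igfbp3 at 1.10% and 1.16% against 0.270% and 0.498%. Summed markers of lymphocytes (5 genes) were 89.5 and 195 CPM under the WT label and 46.8 and 42.8 CPM under the KO label, and those of cholangiocytes (5 genes) 265 and 265 CPM against 207 and 130 CPM. The highest single cholangiocyte marker alone gave 225 and 233 CPM against 178 and 112 CPM, so these sums mostly follow a single gene. The part of other cells' RNA in these differences was not tested. Leaving out the KO library 46 left Igfbp1 as the only call, leaving out KO 6 left Igfbp2 alone, and leaving out WT 34 or WT 38 called Igf1, Igfals and Igfbp2. Without WT 38 the log2 fold change was -2.33 for Igfals and -1.48 for Igf1, and the number of genes called in all was 3 without KO 46, 58 without KO 6 and 688 without WT 34. With 1 library left in a group, that library is assumed to vary like the others.

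**Figure D4:**
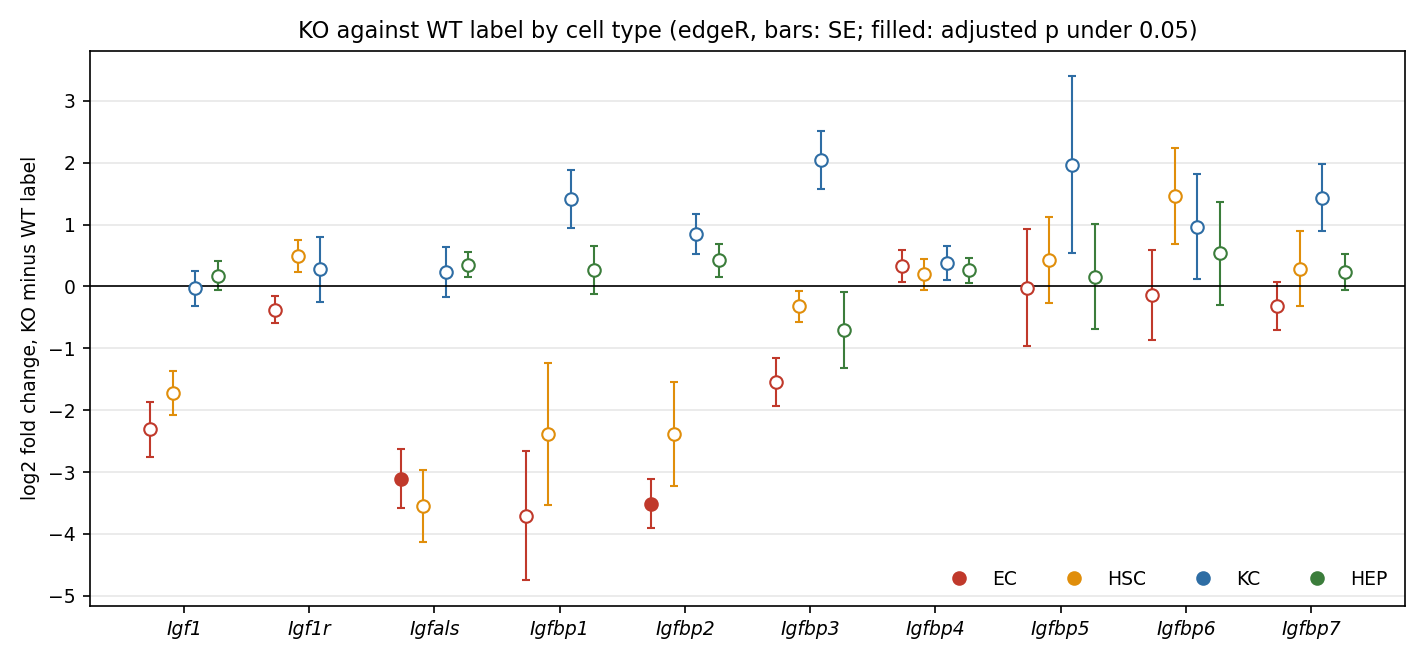
Log2 fold change of the KO against the WT label for each of the 10 genes in the 4 cell types (edgeR; bars, SE; filled circles, adjusted p-value under 0.05; n = 2 libraries per label). Igfals and Igfbp2 in ECs are the filled points, at -3.11 and -3.51, and Igf1r in HEPs is not drawn because its counts were too low to be tested.

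In HSCs no gene of the genome passed the threshold in edgeR (0 of 14390, 0%), and 3 of the 10 genes had an unadjusted p-value under 0.05, beside 8.75% of all genes. In 5 genes (Igf1, Igfals, Igfbp1, Igfbp2 and Igfbp3) both KO libraries were below both WT libraries, beside 19.3% of all genes, and in 2 (Igf1r and Igfbp6) both were above, beside 20.5%. Igfals had 16.2 and 45.3 CPM under the WT label and 3.04 and 2.28 CPM under the KO label (log2 -3.54 ± 0.58 (SE), adjusted p = 0.297, edgeR). Igf1 had 71.1 and 91.5 CPM against 18.04 and 31.1 CPM (log2 -1.73 ± 0.36, adjusted p = 0.340). DESeq2 called these 2 genes (adjusted p = 2.168e-06 and 0.00215), beside 2.82% of all genes. Summed HEP markers in the same libraries were 3176 and 7729 CPM under the WT label and 576 and 1535 CPM under the KO label, with 1 of the 10 at 0 in the KO library 8. Summed lymphocyte markers were 18.8 to 19.6 CPM against 5.81 to 7.67 CPM and cholangiocyte markers 87.8 to 98.6 CPM against 41.9 to 45.5 CPM. The highest single cholangiocyte marker alone gave 74.7 to 85.7 CPM against 32.2 to 38.0 CPM. The part of these cells in the difference was not tested. Igfbp3 was at -0.32 ± 0.25 (log2; adjusted p = 0.814), and Igfbp7 at 0.28 ± 0.61 (adjusted p = 0.940), with 1486 and 5181 CPM in the KO libraries on either side of the WT libraries.

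In KCs the estimates went the other way. Of the 10 genes, 9 had a higher estimate under the KO label, with a median log2 fold change of 0.91 against -0.02 over all genes. None passed in edgeR, nor did any of the 13867 genes tested (0%), while 4 members had an unadjusted p-value under 0.05, beside 5.09% of all genes. Igfbp3 had 7.24 and 7.90 CPM under the WT label and 44.8 and 20.6 CPM under the KO label (log2 2.04 ± 0.47 (SE), adjusted p = 0.933 in edgeR) and was the only member called by DESeq2 (adjusted p = 0.0408), which called 0.512% of all genes. Igfbp7 had 56.7 and 27.4 CPM against 168 and 77.4 CPM (log2 1.44 ± 0.54, adjusted p = 0.933 in edgeR). In 6 members both KO libraries were above both WT libraries, beside 20.5% of all genes, and in 0 both were below, beside 16.1%. Summed HEP markers were 5806 and 8645 CPM in KCs labelled WT and 9629 and 11608 CPM in those labelled KO, at a median of 5.17% and 8.09% against 9.22% and 10.9% of their WT HEP level. HSC markers stood at a median of 0.630% and 0.282% of their WT HSC level in KCs labelled WT and 1.25% and 0.410% in those labelled KO, and EC markers at 2.42% and 4.50% against 5.63% and 4.91% of their WT EC level. Summed markers of portal fibroblasts and mesothelium (5 genes) were 9.19 to 10.3 CPM under the WT and 17.7 to 31.9 CPM under the KO label. The highest single marker of this list gave 3.59 to 4.09 CPM against 14.7 to 14.8 CPM. The part of such cells in these values was not tested. Igf1 was at -0.03 ± 0.28 (log2; adjusted p = 0.995).

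In HEPs 9 of the 10 genes had enough counts to be tested, and none of them had an unadjusted p-value under 0.05 in edgeR, beside 7.11% of all genes, or in DESeq2. edgeR called 0 of 11548 genes (0%) and DESeq2 called 0.234%. Log2 fold changes of the abundant members were 0.18 ± 0.23 (SE) for Igf1, 0.35 ± 0.20 for Igfals, 0.27 ± 0.39 for Igfbp1, 0.42 ± 0.26 for Igfbp2 and 0.26 ± 0.20 for Igfbp4. Igfals and Igfbp4 were above in both KO libraries, beside 16.4% of all genes, and no member was below in both, beside 23.2%. None of these differences passed the threshold, and a missed threshold does not show equal levels.

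Whether the KO difference itself varied between cell types was tested as an interaction over the 16 libraries, in 6 pairs. Of the 10 genes 3 passed in at least 1 pair, beside 2.21% of the 17214 genes tested. These were Igfals, Igfbp2 and Igfbp3, each with a lower KO-minus-WT difference in ECs than in KCs, and Igfals also with a lower one in HSCs than in KCs. The other 4 pairs of cell types gave no call among the members. Igf1 between ECs and KCs had a difference of -2.29 ± 0.58 (log2, SE) and missed the threshold (adjusted p = 0.0733, edgeR). 

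The other genes of the growth hormone and IGF pathway, a list of 34, were examined by role. Igf2, the fetal ligand, was read mainly in HSCs, with 5.70 and 2.69 CPM under the WT label and 2.42 and 26.4 CPM under the KO label, and had at most 0.932 CPM elsewhere. Igf2r, which clears Igf2, had 1.62 to 24.6 CPM over the 16 libraries. Insr, the insulin receptor gene related to Igf1r, was highest in ECs, with 144 and 120 CPM under the WT label and 91.1 and 109 CPM under the KO label, 1.83-fold above HEPs after TMM scaling (adjusted p = 0.00496, edgeR). Unlike Igf1r, it was also read in HEPs, at 21.1 to 28.7 CPM. Ghr, the growth hormone receptor gene, was highest in HEPs, at 455 to 610 CPM, and its nearest cell type, HSCs, was 12.6-fold lower after TMM scaling. Its targets Socs2 and Cish had 11.5 to 34.8 CPM and 9.0 to 53.8 CPM in HEPs, without one top cell type.

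Among genes that release Igf1 from its carriers, Pappa, the protease of Igfbp4, had 2.35 to 5.19 CPM in HSCs and at most 5 counts in any other library. Its relative Pappa2 was too low to be tested. Htra1, a protease of binding proteins, had 195 and 202 CPM in WT and 294 and 397 CPM in KO HSCs and was 1.95-fold higher there than in ECs (adjusted p = 0.0330, edgeR). Stc1, which inhibits Pappa, had 49 and 54 counts in HSCs labelled WT and 0 and 0 in those labelled KO (adjusted p = 0.330 in edgeR and 0.00177 in DESeq2), and Stc2 had at most 0.899 CPM in any library. Between the labels, no gene of this list passed in edgeR in any cell type, of 27 tested in ECs, 31 in HSCs, 25 in KCs and 23 in HEPs. Without adjustment, 6, 4, 4 and 3 of them had a p-value under 0.05, beside 15.0%, 8.75%, 5.09% and 7.11% of all genes tested in these cell types. In ECs the median log2 fold change of the list was -0.31, with 19 of 27 genes lower, and Ghr had 77.9 and 142 CPM under the WT label against 41.9 and 31.9 CPM (log2 -1.58 ± 0.32 (SE), adjusted p = 0.0732). DESeq2 called 3 of the 27 in ECs (Ghr, Stat5b and Irs2), beside 6.7% of all genes. Ghr was highest in HEPs, and HEP markers in ECs were also lower under the KO label. The part of RNA from HEPs in this difference was not tested.

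Genes with the pattern most like that of a member were found by Pearson's r of log2 CPM (prior count 2) over the 16 libraries, among 14002 named genes. These libraries share their cell types, so that r mainly reflects differences between them. For Igf1 they were Rnf128 (r = 0.986), Apoc1 and Pygl, for Igf1r Wbp5 (0.991), Cnot4 and Stk39, for Igfals Fbp1 (0.998), Uox and Cyp2j5, and for Igfbp2 Hgd (0.996), Alb and Serpinc1. Igfbp1 was closest to Serpina10 (0.971), Saa1 and Serpina4-ps1. Igfbp3 was closest to Sod3 (0.991), Col14a1 and Rgs5, Igfbp7 to Col4a2 (0.989), Flywch1 and Sparc, and Igfbp4 to Gpx4 (0.959), Spint2 and Cd59a. The low genes Igfbp5 and Igfbp6 had weaker partners, Chd3os (0.864) and Mex3b (0.842).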

How the data were processed

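The authors deposited 1 table of raw counts per library, that is, reads counted per Ensembl gene. The submitters' processing notes name Trimmomatic 0.32, HISAT2 2.1.0, HTSeq 0.9.1, edgeR and GRCm38. The strand setting and the annotation release are not given in the sources used here, and the series and sample descriptions name different library preparations. Of the identifiers 98.9% were in GENCODE release M21. The 5 summary lines of each table were left out of totals. Reads without a gene made up 42.5% to 57.5% of a table.

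CPM used the total on genes. Groups came from the labels, 8 with 2 libraries each (12872706 to 15690506 reads). Counts of the 2 libraries in every group differed beyond sampling noise. The labels name no mouse for a library, although the study's text speaks of its sequenced samples as mice, and p-values measure the spread between these libraries. With 2 against 2, a permutation test could not go below 0.333 and none was run. Genes were tested with edgeR 4.0.16 in R 4.3.3 (filterByExpr, TMM, quasi-likelihood test, Benjamini-Hochberg over all genes tested, threshold 0.05). KO and WT labels were compared in the 4 libraries of a cell type, cell types and interactions in 1 fit over 16 libraries. The scripts were tested on simulated data. Fold changes from edgeR are on its fitted scale. Their SEs were calculated as the absolute log2 fold change divided by the square root of the test's F statistic.

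Alternatives were DESeq2 1.42.0, RLE factors, library totals, TMM without 857 hepatocyte-enriched genes, no filter, a minimum of 10 counts per library, 1 fit over all 16 libraries, WT or KO libraries alone, and leaving out each library. All 10 members, Zeb2, 11 pathway genes fixed by role and any other pathway gene past the threshold are named; Stat5b and Irs2 are named because they were called in DESeq2. Likeness left out unnamed gene models. The members and gene lists were chosen with earlier results of these data known. Protein sequences were not used here.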

Additional observations from a re-analysis of the deposited data

Results flagged for a closer look

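In 3 genes the KO difference differed between ECs and KCs by the interaction test in edgeR over 16 libraries, in opposite directions in the estimates. For Igfals the log2 fold change in ECs minus that in KCs was -3.36 ± 0.71 (SE, adjusted p = 0.0355), for Igfbp2 it was -4.38 ± 0.87 (adjusted p = 0.0296) and for Igfbp3 -3.61 ± 0.73 (adjusted p = 0.0318). For Igfals the difference between HSCs and KCs was -3.81 ± 0.72 (adjusted p = 0.0403). In ECs, both KO libraries were below both WT libraries for each of the 3 genes. In KCs, both were above for Igfbp2 and Igfbp3, and the libraries overlapped for Igfals. Without 1 library the number of members called ranged from 0 to 3, and it was 0 without KC WT 31, KC WT 39, HEP WT 29 or HEP WT 33. It was 1 without EC WT 38, EC KO 6, EC KO 46, KC KO 43, HEP KO 25 or HEP KO 41, and 2 without KC KO 27. HEP markers, summed, were at 11872 and 24504 CPM under the WT label against 2824 and 1984 CPM under the KO label in ECs, and at 5806 and 8645 CPM against 9629 and 11608 CPM in KCs. Their part in these differences was not tested.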

How the results depend on the processing

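Counts of called members were compared with those of edgeR as described. The share of all genes called in ECs was 2.08% in edgeR as described, 6.7% with DESeq2, 5.26% without a filter and 3.97% with at least 10 counts. It was 2.46% with all 16 libraries in one fit and 1.3% with library totals. In HSCs the share was 2.82% with DESeq2 and 2.7% without a filter, and 178 of 17214 genes were called with all 16 libraries in one fit. In KCs the share was 0.512% with DESeq2 and 0.704% without a filter. In ECs (2) the count was 4 with DESeq2, 5 without a filter, 3 with at least 10 counts in every library, 3 with all 16 libraries in one fit, 1 with library totals and 1 to 3 without 1 library. In HSCs (0) it was 2 with DESeq2, 4 without a filter and 1 with all 16 libraries in one fit, and in KCs (0) 1 with DESeq2 and 2 without a filter. In HEPs it was 0 under every alternative. Without 1 library it was 0 in HSCs, KCs and HEPs. Interactions (3 members) were called in 5 with DESeq2, 6 without a filter and 0 to 3 without 1 library. Pathway genes called in ECs (0) were 3 with DESeq2, 4 without a filter, 2 with at least 10 counts and 0 to 1 without 1 library. In HSCs they were 1 with DESeq2 and 1 without a filter, and in HEPs 2 without a filter and 0 to 1 without 1 library. The shares given above for the same cell type and setting also stand beside these pathway counts, and the share in HEPs without a filter was 1.14%. For the counts without 1 library no share is given here. For interactions the share of all genes was counted only in edgeR as described, so the other interaction counts have none beside them. The causes were not tested. Members with one top cell type numbered 5 to 7 under every alternative, with WT or KO libraries alone 5.

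The number of genes called in ECs, 305 in edgeR, was 980 with DESeq2, 190 with library totals, 1259 without a filter and 489 with at least 10 counts in every library, 423 with all 16 libraries in one fit, and 3 to 688 without 1 library (3 without KO 46, 58 without KO 6, 332 without WT 38 and 688 without WT 34). Signs reversed for Igfbp4, which was highest in ECs by 0.64 (log2) with library totals, and for estimates near 0, none of them called. With library totals these were Igfbp5 in ECs (0.028) and Igf1 in KCs (0.024, and 0.0075 with TMM without hepatocyte-enriched genes). Igfbp6 was highest in KCs in the KO libraries alone (0.22). Leaving out 1 library turned further estimates, whose log2 fold changes then ranged, in ECs, from -2.44 to 0.85 for Igfbp5, -1.24 to 0.64 for Igfbp6 and -0.71 to 0.17 for Igfbp7, in HSCs, from -0.066 to 0.49 for Igfbp4, -0.14 to 1.14 for Igfbp5 and -0.99 to 0.95 for Igfbp7, in KCs, from -0.17 to 0.082 for Igf1, -0.13 to 0.65 for Igfals and -0.46 to 1.66 for Igfbp6, in HEPs, from -0.11 to 0.42 for Igf1, -0.26 to 0.71 for Igfbp1, -0.96 to 0.96 for Igfbp5, -0.12 to 1.72 for Igfbp6 and -0.14 to 0.53 for Igfbp7. The smallest log2 difference between the highest and another cell type, where the highest changed, ranged from 0.083 to 0.75 for Igfbp5 and 0.037 to 0.78 for Igfbp6.
No paired analysis was possible because no number in the labels is shared between groups. Depth limits Igfbp5, Igfbp6 and, in HEPs, Igf1r, where 3 counts are 0.191 to 0.205 CPM.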
